A study of Homo sapiens with 6 samples.

Results

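RPPH1 and RMRP are the RNA subunits of RNase P and RNase MRP, a pair of related ribonucleoproteins. They were chosen by gene name: 3 of the 142 rows of the authors' deposited table carry the names RPPH1 (1 row) or RMRP (2 rows with different gene identifiers), which stand for 2 genes. The 3′ ends of newly made small RNA were read in HEK 293T-REx TOE1-degron cells, a human embryonic kidney line in which the exonuclease TOE1 carries a degron, so that auxin leads to its loss. All cells were given 0.2 mM ethynyl uridine for 8 hours, a nucleoside by which newly made RNA can be captured. The TOE1+ group (3 libraries, TOE1-present) was compared with the TOE1- group (3 libraries, TOE1-depleted), which was given 600 µM indole-3-acetic acid, an auxin, for 8 hours; RNA of 100 to 500 nt was used. The AG10 adaptor was ligated to the 3′ ends of all 3 TOE1-present libraries and of TOE1-depleted replicate 1, and the AG11 adaptor to those of TOE1-depleted replicates 2 and 3. Adaptor and depletion therefore cannot be told apart in those 2 libraries. The labels do not name a clone and do not say whether replicates were separate cultures, so a p-value here reflects how far these libraries differ among themselves, perhaps for technical reasons only. The table lists small RNAs only; neither TOE1 itself nor markers of the cell line were examined in it.

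RNase P removes the 5′ leader of precursor transfer RNAs, and its RNA carries the catalytic centre. RNase MRP shares most of its protein subunits with RNase P, has a related RNA core and acts in the maturation of ribosomal RNA. Both RNAs are made by RNA polymerase III from upstream promoters, lack the trimethylguanosine cap and the Sm ring of spliceosomal snRNAs, and end near a run of T at which the polymerase stops. TOE1 is known as a 3′ exonuclease that trims snRNAs, so these RNAs serve here as polymerase III transcripts outside its best known targets.

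On hg38, RPPH1 (ENSG00000277209) lies on chromosome 14, 20343075 to 20343407, minus strand. In GENCODE 44 it is a ribozyme gene of a single exon, of 333 nt, and the RMRP model ENSG00000277027 is 264 nt long. The other RMRP identifier, ENSG00000269900, was not found in GENCODE 44, so its ends are not known here. RefSeq draws RPPH1 longer, at 341 nt, and its 3′ end lies 4 nt beyond the GENCODE end. The 3′ part of RPPH1 is shown because the end positions below are counted there. The line holds the last 100 annotated bases and the next 50 genomic bases, read from hg38 (chr14:20343025-20343174, minus strand), and capitals mark the 4 bases that RefSeq adds to the GENCODE end.
RPPH1: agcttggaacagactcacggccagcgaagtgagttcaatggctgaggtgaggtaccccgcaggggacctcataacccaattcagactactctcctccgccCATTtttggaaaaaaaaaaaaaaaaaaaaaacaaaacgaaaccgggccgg

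RPPH1 has a run of TTTT that begins at base 3 after the GENCODE end, searched on the transcribed strand only. The motif TTTT occurs in the 50 nt after the end of 41.9% of the 129 table rows with a single GENCODE 44 gene, 10 of 14 rows that the authors class as polymerase III RNAs and 44 of 115 others. RPPH1 and RMRP share an arrangement with their neighbours. Each starts head to head with a protein-coding gene on the other strand: RPPH1 lies 207 nt from PARP2, a poly(ADP-ribose) polymerase of DNA repair, and RMRP 272 nt from CCDC107. A protein-coding gene within 300 nt in this orientation was found for 5 of the 129 rows, or 3.88%: RPPH1, RMRP, SNORD13, RNU12 and SNORA57. RPPH1 is poor in uridine, the base that the nascent label replaces. U made up 16.8% of its bases, against a median of 25.6% over the 129 rows, where it stood 4th from the lowest. By number, RPPH1 holds 56 uridines, against a median of 35.

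RPPH1 had 22318 reads over the 6 libraries and stood 4th of 142 rows. The RMRP rows had 12133 and 7825 reads, together 19958. Table totals ran from 34581 to 57078 reads in the TOE1-present and from 32813 to 75353 reads in the TOE1-depleted libraries. Before the comparisons, the RMRP rows have to be seen side by side. ENSG00000269900 had 0, 1985 and 2397 reads in TOE1-present replicates 1, 2 and 3, and 0, 2291 and 5460 reads in TOE1-depleted replicates 1, 2 and 3. ENSG00000277027 had 2645, 160 and 222 reads, and then 4200, 246 and 352 reads. All RMRP reads of replicate 1 thus stood on ENSG00000277027 in both groups, whereas 90.3% to 93.9% stood on ENSG00000269900 in the other 4 libraries. With 2645 and 4200 RMRP reads, the 0 reads of ENSG00000269900 in replicate 1 allow shares of up to 0.113% and 0.0714% of RMRP reads, counting error only. The division followed the replicate number and not TOE1, so only the sum of the rows was compared between groups.

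**Figure D1:**
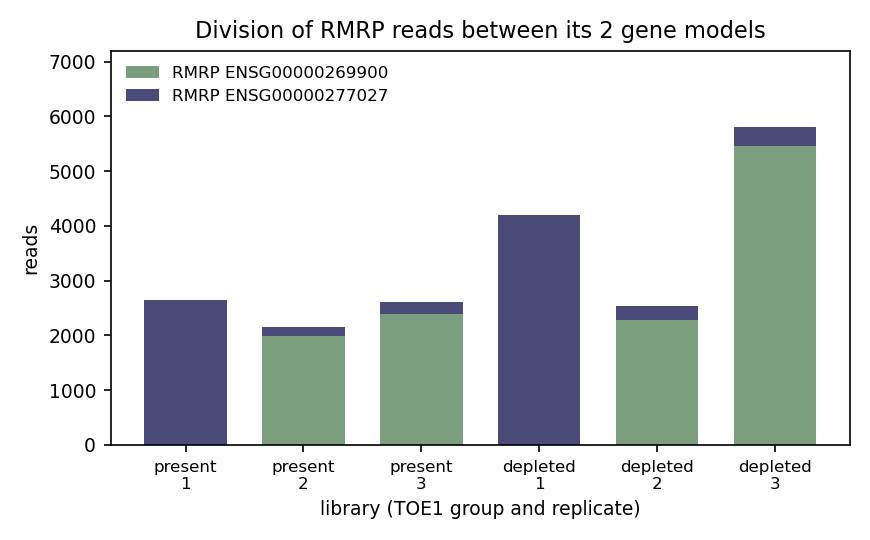
RMRP reads per library (y axis, reads) on its 2 gene models (stacked bars, colours), for replicates 1 to 3 of the TOE1-present and TOE1-depleted groups (x axis). Replicate 1 of both groups holds 2645 and 4200 reads on ENSG00000277027 alone, while in the other 4 libraries that model holds 160 to 352 reads.

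The first comparison asked whether the amount of newly made RNase P or RNase MRP RNA differed once TOE1 was depleted. RPPH1 was lower in all 3 TOE1-depleted libraries than in any TOE1-present library, but its spread among the depleted libraries was wide and the difference did not pass the adjusted threshold. The RMRP values of the groups overlapped, and their difference did not pass either. RPPH1 had 109735, 112966 and 147426 TMM-normalised CPM in the TOE1-present libraries and 89964, 51373 and 19287 in TOE1-depleted replicates 1, 2 and 3. CPM are reads scaled to the same table total in each library, and TMM is a scaling that sets most RNAs level between libraries. The depleted library with the AG10 adaptor lay closest to the TOE1-present libraries, and both libraries with AG11 lay further below. The means were 123376 ± 20891 and 53541 ± 35388 CPM (SD, n = 3 each). The log2 change was −1.20 ± 0.49 SE (edgeR's quasi-likelihood test, adjusted p = 0.156 over 100 RNAs). Its 95% interval ran from −2.36 to −0.05. As plain shares of table reads, TOE1-depleted replicate 1 (7.96%) lay just below TOE1-present replicate 1 (8.07%). Their 95% counting intervals, 7.77% to 8.16% and 7.85% to 8.30%, overlapped. The table totals include the row AL162581.1, with 9881 reads, all in replicate 1 of the 2 groups. They also include AC024051.4, with 21680 reads and uneven between libraries (79040 ± 136902 TMM-normalised CPM in the TOE1-depleted group, SD, n = 3). Plain shares depend on these rows, and shares without them were not computed. Scaled by library totals alone, the RPPH1 log2 change was −0.76 (edgeR's quasi-likelihood test, adjusted p = 0.115).

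RMRP, both rows added up, had 63015, 66351 and 89109 TMM-normalised CPM in the TOE1-present libraries and 62964, 60903 and 70679 in the TOE1-depleted libraries. These values overlapped, with means of 72825 ± 14201 and 64849 ± 5153 CPM (SD, n = 3 each). Its log2 change was −0.17 ± 0.20 SE (edgeR's quasi-likelihood test, adjusted p = 0.725), with a 95% interval from −0.64 to 0.31. It was −0.30 without TOE1-present replicate 1, −0.26 without TOE1-present replicate 2, −0.11 without TOE1-depleted replicate 2 and −0.02 without TOE1-present replicate 3, and was not called in any of these. Scaled by library totals alone it was 0.41, a setting that moved the median of all RNAs up by 0.55 on the log2 scale, so the sign for RMRP depends on the scaling. In bulk RNA, less of an RNA made per cell and fewer cells making it cannot be told apart.

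**Figure D2:**
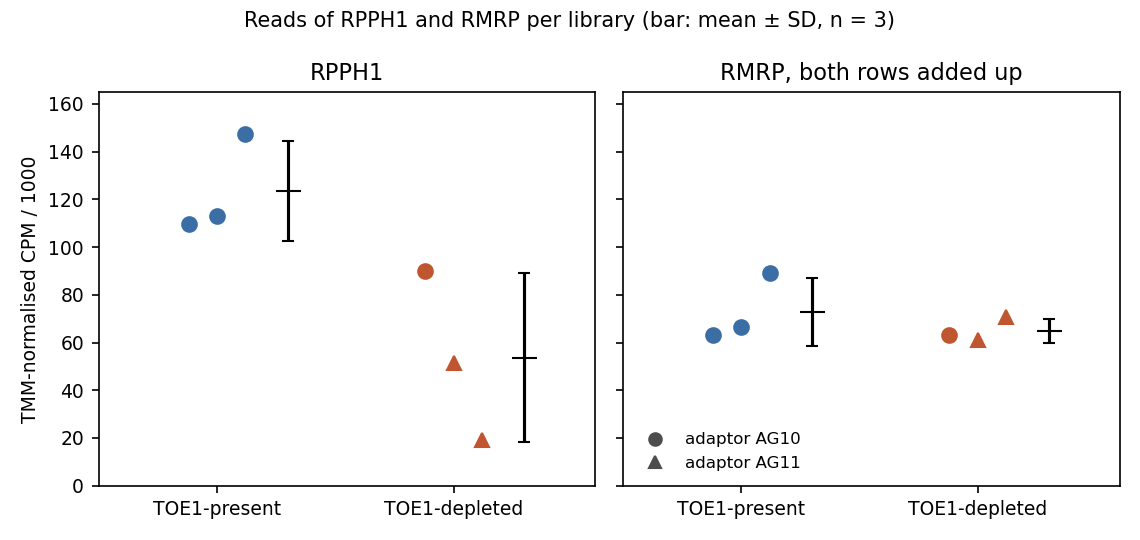
TMM-normalised CPM divided by 1000 (y axis) of RPPH1 and of RMRP with both rows added up, by TOE1 group (x axis); points are libraries (circles AG10, triangles AG11), and the bar gives mean ± SD (n = 3). The 3 TOE1-depleted RPPH1 points lie below all 3 TOE1-present points, whereas the RMRP points of the groups overlap.

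Neither RNA was called, by edgeR or by DESeq2 (adjusted p of 0.134 for RPPH1 and 0.585 for RMRP), while 13% of the 100 RNAs tested were called by edgeR, 8 lower and 5 higher. At an unadjusted p under 0.05, RPPH1 was counted and RMRP was not, by either tool. That limit was passed by many RNAs, 16 higher and 14 lower of 100 by edgeR and 14 higher and 15 lower of 139 by DESeq2. Values with no overlap and the depleted group lower, as for RPPH1, were found for 15% of the RNAs, and the reverse for 18%. By size, the RPPH1 value was the 2nd lowest of the 100 log2 changes, next to VTRNA1-3, a vault RNA with 80 reads. Without TOE1-depleted replicate 1 RPPH1 was called (log2 change −1.82, edgeR adjusted p = 0.0491). In that setting all TOE1-depleted libraries have AG11 and all TOE1-present libraries AG10, so adaptor and depletion cannot be told apart. With AG10 libraries alone, 3 against 1, the RPPH1 log2 change stood at −0.50. Without TOE1-depleted replicate 3 it stood at −0.80 (edgeR adjusted p = 0.177).

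The ratio of RMRP to RPPH1 reads within a library needs no scaling between libraries. It was nearly constant in cells with TOE1, at 0.574, 0.587 and 0.604 RMRP reads per RPPH1 read in replicates 1, 2 and 3. In TOE1-depleted replicates 1, 2 and 3 it was 0.6999, 1.19 and 3.66. All 3 depleted libraries stood above all 3 TOE1-present libraries, and the exact 95% counting intervals of TOE1-present replicate 3 (0.576 to 0.635) and TOE1-depleted replicate 1 (0.673 to 0.728) did not meet. The groups had means of 0.589 ± 0.015 and 1.85 ± 1.59 (SD, n = 3 each). The mean log2 ratio was 1.30 higher in TOE1-depleted libraries (2-sided exact permutation test, p = 0.1, the smallest p that 3 against 3 allows). Over the 4950 pairs of RNAs tested, 32.5% had ratios that did not overlap between groups, so such a separation was common in these libraries. Among AG10 libraries alone the difference was 0.25 on the log2 scale, and without TOE1-depleted replicate 3 it was 0.63.

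**Figure D3:**
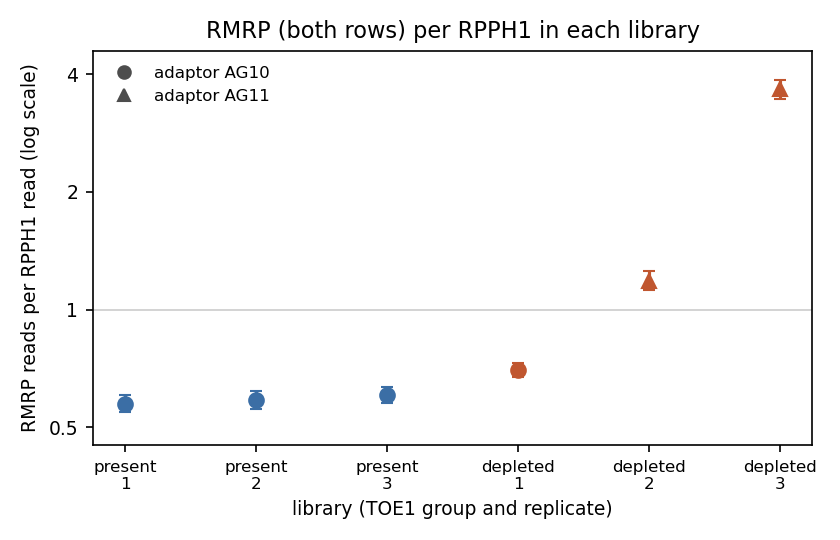
RMRP reads (both rows) per RPPH1 read (y axis, log scale) in each library (x axis); circles are AG10 and triangles AG11 libraries, and bars are exact 95% counting intervals. The TOE1-present libraries lie between 0.574 and 0.604, and the TOE1-depleted libraries above them, up to 3.66 in replicate 3.

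Setting each RNA against every other RNA in the same library showed how each of the 2 stood relative to the rest. RPPH1 reads per read of the other RNA were lower in all depleted than in all TOE1-present libraries for 68 of 99 other RNAs, and higher for 0. These are 68.7% and 0%. For RMRP the numbers were 19 lower and 8 higher of 99, or 19.2% and 8.08%. Over all 4950 pairs of tested RNAs the share that did not overlap, in either direction, was 32.5%. The pairs share the same 6 libraries, and the numbers are a description.

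Of the other RNAs made by RNA polymerase III, 15 rows were in the table and 12 passed the filter on low counts. Of these, 4 were called lower and 0 higher, against 8 lower and 5 higher of all 100 RNAs tested. Their median log2 change was −0.14, against 0.08 over all 100 RNAs. The 4 called were RN7SL1, RN7SL2 and RN7SL3, RNAs of the signal recognition particle, at −1.10, −1.02 and −1.13, and RN7SK at −0.67 (edgeR adjusted p of 0.0225, 0.0225, 0.0225 and 0.0309). The 3 RN7SL rows had similar changes, and how reads that map to more than 1 of them were handled is not given. The table row AL162581.1, whose identifier belongs to a 7SK gene model that overlaps RN7SK in GENCODE 44, holds 9881 reads, all in replicate 1 of the 2 groups, and did not pass the filter, so the RN7SK value leaves those reads out. The RNAs listed as having an upstream promoter like that of RPPH1 and RMRP (U6, U6atac, RNU6-42P, 7SK and the Y RNAs, 6 rows) had a median of 0.07. Of them, 1 was called lower, RN7SK, and 3 of 6 were above 0. Both lists were made by gene name and no promoter was examined. They take in rows named as pseudogenes, RNU6-42P in both and RN7SKP48 and RN7SKP80 in the longer list. U6, the catalytic snRNA of the spliceosome, had a log2 change of 0.20 ± 0.37 SE and U6atac one of −0.27 ± 0.19 SE (edgeR adjusted p of 0.855 and 0.447).

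Over the 6 libraries, the RNAs whose log2 CPM followed RPPH1 most closely, out of 98 compared, were SCARNA2 (Pearson's r = 0.928), SNORD17 (r = 0.889) and RN7SK (r = 0.846). Those closest to RMRP were SNORA71C (r = 0.949), SCARNA12 (r = 0.934) and SNORA73B (r = 0.909). Between RPPH1 and RMRP r was 0.227. These values describe 6 libraries that share their scaling and the 2 groups.

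The second comparison asked whether the 3′ ends of these RNAs moved when TOE1 was depleted. No shift passed the test, and the largest difference of a genome-templated end among the 3 rows was −0.168 nt, in the RMRP row ENSG00000269900. The interval was narrow for RPPH1 and wider for ENSG00000269900, and for the RMRP row ENSG00000277027 a shift of several nt could not have been seen. Ends were measured in a window from −10 to 50 nt around position 0, read here as the annotated 3′ end, with positive positions downstream. In TOE1-present cells the median end of RPPH1 was at position 4 and its mean at 4.49 nt in the authors' deposited table, the 8th most downstream mean of 90 rows with at least 100 reads. If position 0 is the GENCODE end, position 4 is base 20343071 of chromosome 14, the last base of the RefSeq RNA and the last of the capitals shown above. Both RMRP rows had their median at position 0, and their means were 1.62 nt for ENSG00000269900 and 0.819 nt for ENSG00000277027 in the authors' deposited table. The median over the 90 rows was 1.14 nt. The annotation that set position 0 is not given in the sources used here, and the header does not say whether these positions include the tail.

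The authors' deposited table gives a difference of −0.143 nt for the genome-templated end of RPPH1, TOE1-depleted minus TOE1-present. Its 95% interval, recovered from the deposited p, was −0.437 to 0.151 nt (adjusted p = 0.677). For the total end, which includes the tail, the authors' deposited table gives −0.126 nt, with an interval from −0.535 to 0.283 nt (adjusted p = 0.787). RPPH1 was among the more precisely measured RNAs: its interval for the genome-templated end was 0.588 nt wide, the 14th narrowest of 139, against a median width of 1.83 nt. Downstream shifts larger than the upper bounds, 0.151 and 0.283 nt, lay outside the RPPH1 intervals.

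For the RMRP row ENSG00000269900, which rests on 4 libraries, the authors' deposited table gives −0.168 nt for the genome-templated end (95% interval −0.715 to 0.378 nt, adjusted p = 0.703) and −0.302 nt for the total end (−1.52 to 0.918 nt, adjusted p = 0.787). For ENSG00000277027 the authors' deposited table gives −0.128 nt (−7.87 to 7.61 nt, adjusted p = 0.973) and −0.428 nt (−7.02 to 6.16 nt, adjusted p = 0.940). Its interval was among the widest, 134th of 139 by width. The deposited means give every library the same weight, and in 4 of the 6 libraries this row held only the 160 to 352 reads left over from the other row. The mean of the 2 row differences for the genome-templated end, weighted by the total reads of each row, was −0.152 nt, a description with no test. Within each row the libraries still have the same weight.

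All 6 values for these RNAs were negative, as were 88 of 142 genome-templated and 87 of 142 total ends in the authors' deposited table, whose medians were −0.106 and −0.163 nt. None of the 3 rows was called for either end, and none had an unadjusted p under 0.05 by the deposited library test, which 18 genome-templated and 11 total ends of 139 had. The share of RNAs called was 2.16% for each end (3 of 139). limma's moderated test also called none of the 3 rows. The authors' Kolmogorov-Smirnov test on pooled reads, which treats reads as replicates, gave RPPH1 and ENSG00000277027 adjusted p of 0.00365 and 8.46e-05 for the genome-templated end, and called 9.22% of 141 RNAs for that end and 17% for the total end. Of the other polymerase III RNAs, 0 of 14 with a p were called for either end. Over all 15 of their rows, with or without a p, the medians were 0.00721 nt for the genome-templated and −0.289 nt for the total end.

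**Figure D4:**
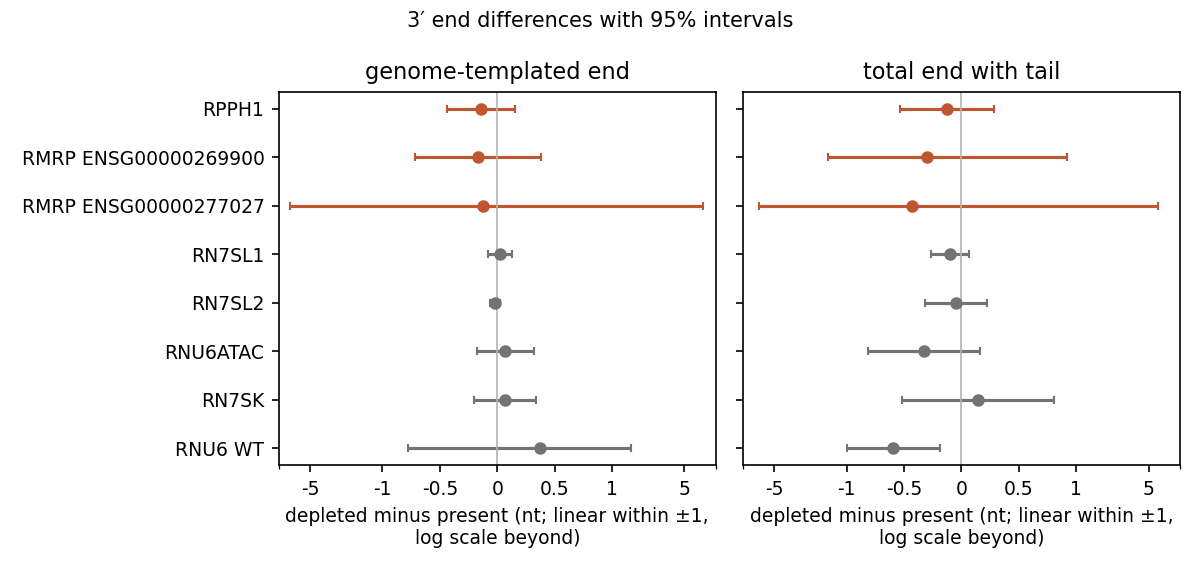
Difference of the 3′ end, TOE1-depleted minus TOE1-present (x axis, nt, linear within ±1 and logarithmic beyond), for the RPPH1 and RMRP rows and the other polymerase III RNAs with at least 1000 reads and a p (y axis), as points with recovered 95% intervals, for the genome-templated end (left) and the total end (right). RPPH1 has a short interval around −0.143 nt, and ENSG00000277027 spans −7.87 to 7.61 nt.

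The third comparison concerned untemplated tails, bases at the 3′ end that do not come from the gene. With TOE1 present, A was the commonest tail base in all 3 rows, and tails of 1 or more A stood on a smaller share of reads for RPPH1 than for either RMRP row. After depletion the RPPH1 share lay between those of the RMRP rows, and no test between rows was made. The rows rest on unlike sets of libraries. ENSG00000269900 had no reads in replicate 1 of either group, and ENSG00000277027 held only 160 to 352 reads in each other library. The differences between TOE1-depleted and TOE1-present cells did not pass the test. By the authors' deposited table, a tail of 1 or more A stood on 9.99% of RPPH1 reads with TOE1 and on 7.50% after its depletion. The 95% interval for this difference was −15.6 to 10.6 points of percent (adjusted p = 0.709). For the RMRP row ENSG00000269900 the authors' deposited table gives 29.3% and 19.1% (difference between −68.3 and 47.9 points, adjusted p = 0.621). For ENSG00000277027 the authors' deposited table gives 14.7% and 5.37% (between −27.3 and 8.66 points, adjusted p = 0.381). The intervals are wide, and changes of several percentage points either way could not be seen.

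Lower A tail shares were general in this table. Of 90 rows with at least 100 reads, 76 were lower and 12 higher in TOE1-depleted cells, with a median share of 20.8% against 11.1%, and 0% of 128 RNAs passed the adjusted threshold, though 27 had an unadjusted p under 0.05. With TOE1, RPPH1 was 77th of these 90 rows by share, and the RMRP rows were 28th and 69th. The AG11 adaptor was in 2 of the 3 TOE1-depleted libraries; its part in these shares was not tested, since the tails are given per condition only.

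**Figure D5:**
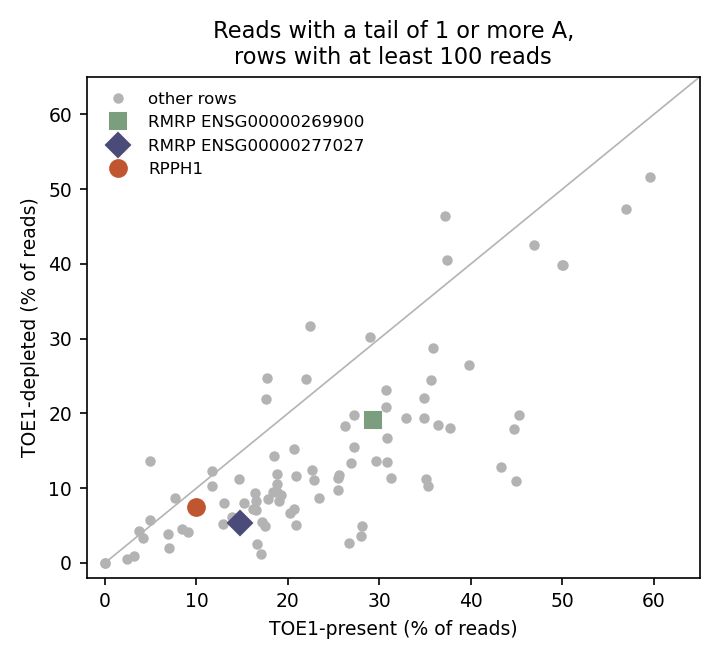
Share of reads with a tail of 1 or more A in TOE1-present (x axis, %) and TOE1-depleted cells (y axis, %), 1 point per table row with at least 100 reads, with the RPPH1 and RMRP rows enlarged and a line of equal shares. The RPPH1 and RMRP points lie below the line, as do 76 of the 90 rows.

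Among reads classed as having a tail of 1 or more A, most had exactly 1 A. The headers do not say how tails of mixed bases are classed. With TOE1, A bases came to 0.277, 0.526 and 0.406 per read on RPPH1, ENSG00000269900 and ENSG00000277027. Exactly 1 A was found on 9.10% of RPPH1 reads, 26.1% of ENSG00000269900 reads and 13.4% of ENSG00000277027 reads with TOE1 in the authors' deposited table. Tails of 3 or more A stood on 0.376%, 1.26% and 0.825% of reads with TOE1, by the authors' deposited table, and on 0.229%, 1.47% and 0.565% after its depletion (adjusted p of 0.526, 0.782 and 0.726). The summed tail came to 0.629 nt per read on RPPH1 with TOE1 and 0.646 nt without it, and to 0.802 and 0.669 nt on ENSG00000269900. On ENSG00000277027 it was 1.40 and 1.10 nt, and more of it was C, G and U: 0.318 C, 0.390 G and 0.289 U bases per read with TOE1, against 0.0616, 0.143 and 0.0720 on ENSG00000269900, in the authors' deposited table. No test between the rows was made.

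Tails classed as 1 or more U were rare, but U bases were not absent. ENSG00000269900, with 0% of reads in this class with TOE1, held 0.0720 U bases per read, so the class leaves out U bases. RPPH1 held 0.0935 and ENSG00000277027 held 0.289 U bases per read with TOE1. A tail of 1 or more U was found on 0.0760% of RPPH1 reads with TOE1 and 0.0733% after its depletion, on 0% and 0.00916% of ENSG00000269900 reads, and on 1.34% and 1.43% of ENSG00000277027 reads in the authors' deposited table. Their adjusted p were 0.967, 0.692 and 0.967. If position 0 is the GENCODE end, the base that follows the RPPH1 median end in the sequence above is a T, so a U added there has the same letter as the genome. Reads classed as having A and U tails made up 0.0635% and 0.123% of RPPH1 reads in the authors' deposited table (unadjusted p = 0.0538, adjusted p = 0.506). Over all 13 tail measures, 0 values of the 3 rows that had a p were called, whether the deposited p or limma's moderated p was used, and 0 had an unadjusted p under 0.05, which 0 to 27 RNAs had for a measure. The share of all RNAs called was 0% for 10 of these measures, 0.787% for U bases, 1.08% for tails of 2 or more A and 1.37% for tails of 3 or more A.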

How the data were processed

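The build hg38 and the aligner STAR 2.7.8a are named, per the submitters' processing notes. The sources used here do not give the annotation, the handling of multi-mapped reads or any molecular identifiers. The authors deposited raw read counts per RNA and library, per the file headers. Tail shares are fractions of reads that the authors deposited per condition, printed here as percentages. The p-values deposited by the authors are, per the file headers, from t-tests and Kolmogorov-Smirnov tests. End positions and tail lengths (nt) were deposited per condition, with the difference. TE minus GE equalled the summed tail changes in the 3 rows to within 1e-05 nt, so GE was read as the genome-templated and TE as the total end. The deposited values had the form of equally weighted library means: the RPPH1 share with 3 or more U equalled 1 read of 4333 averaged over 3 libraries to within 1e-07.

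Counts were tested on the whole table with the RMRP rows added up (edgeR 4.0.16 glmQLFTest, TMM, filterByExpr, 100 of 141 rows; DESeq2 1.42.0 as an alternative), with Benjamini-Hochberg adjustment and a limit of 0.05; SE is the log2 change divided by the root of F. Standard errors of end and tail differences were recovered from difference and p, with degrees of freedom from the libraries that had reads, and moderated as an alternative (limma 3.58.1, squeezeVar). Deposited p were adjusted over all RNAs that had one. The count test was tried on simulated counts with known fold changes and the same spread for every RNA. The recovery of standard errors was tried on simulated t-tests of the same form. Neither simulation held differences by replicate or adaptor. All RPPH1 and RMRP rows were described whatever their values; the RNAs listed as most alike were the 3 with the highest Pearson's r of log2 CPM (prior count 2). Of the 3 members' identifiers, 2 were found in GENCODE 44. The RMRP sequence is not reported here. The members and lists were chosen with earlier results of these data known. Intervals of ratios and limits at 0 reads (3 reads) cover counting error only, since reads are not independent molecules.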

Additional observations from a re-analysis of the deposited data

How the results depend on the processing

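Over all alternatives the RPPH1 log2 change ran from −1.82 to −0.50 and was called under 2 of them: without TOE1-depleted replicate 1, and with the replicate block (−1.43, edgeR adjusted p = 0.0251). Without TOE1-depleted replicate 1, the TOE1-depleted group has AG11 libraries only and the TOE1-present group AG10 libraries only. Leaving out 1 library at a time gave −1.82 to −0.80. Replicate numbers are shared by the groups, but the correlation of deviations was 0.843, −0.315 and 0.745 for the numbers 1, 2 and 3, so they were not taken as pairs. Without AC024051.4 and AL162581.1 the values were 0.023, 0.010 and 0.151, and TOE1-present replicate 3 followed TOE1-depleted replicate 2 (0.745) as closely as replicate 3 over all tested RNAs. Within replicate numbers the log2 ratio of RMRP to RPPH1 differed by 1.30 (exact sign-flip permutation test, p = 0.25, the smallest possible). RMRP changed sign only with scaling by library totals (0.41, edgeR adjusted p = 0.312).

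Calls over all RNAs also varied. Against 5 higher and 8 lower, higher calls numbered 3 with DESeq2, 3 with no filter, 8 with the block, 37 with library totals and 0 with AG10 libraries. Lower calls numbered 12 with DESeq2, 11 without AC024051.4 and AL162581.1 and 10 with the block. They numbered 5 without the 7SL rows, 3 with RMRP rows kept apart and 0 with library totals. Leaving out 1 library gave 0 to 5 higher and 0 to 6 lower. The setting without the 7SL rows takes out RN7SL1, RN7SL2 and RN7SL3, which were called lower in the main run. Scaling by library totals moved the median of all RNAs up by 0.55 on the log2 scale. Causes were not tested, and the settings that leave out libraries use fewer samples. The test on pooled reads called the genome-templated ends of RPPH1 (−0.143 nt) and ENSG00000277027 (−0.128 nt) and their total ends (−0.126 and −0.428 nt). The other 14 tested alternatives for the ends and all 72 for the tails changed no call for these rows. Apart from the test on pooled reads, these alternatives reuse the deposited differences and p of the library test, so they are not independent of it. For the ends 2 more, the RMRP rows weighted by reads, have no test. The RMRP row ENSG00000269900 has reads in 4 libraries, so no ratio for it alone was formed.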
